A study of Rattus norvegicus with 47 samples.

Results

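The 34 genes described here encode the machinery of hepatic fatty acid oxidation together with further targets of PPARA, and they were measured in rat liver under different vitamin A diets and after all-trans-retinoic acid (at-RA). The rule finds the genes by name and uses measured values only to choose among the probe sets of a gene. The list itself was drawn up with earlier results of these data known. A gene entered when a probe set carried its symbol as the only gene symbol of the platform annotation, and the probe set with the highest mean over the 47 arrays stood for the gene. All 34 were found among 14217 named genes of the Affymetrix rat array. Among them, 22 had 1 probe set and 12 had several. After a filter on dim probe sets, 34 genes were tested in the diet experiment, 33 in the at-RA time course and 34 in the intravenous experiment. The gene left untested in the time course was Ppara itself, which was dim on those arrays.

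The 3 experiments used female rats killed by CO2 (Sprague-Dawley in the diet experiment and time course) and gave 13 groups, with 1 liver on each array. In the diet experiment, nursing dams received a purified diet lacking vitamin A, and their offspring ate from weaning to 8 weeks a diet with 1 of 4 amounts of retinol per kg. The deficient diet held 0 mg (5 arrays), the marginal diet 0.4 mg (7 arrays), the adequate diet, which is the control, 4 mg (6 arrays), and the supplemented diet 100 mg (2 arrays). In the at-RA time course, vitamin A-deficient rats aged 8 weeks were given about 100 µg of at-RA and killed after 3 h, 6 h, 10 h or 16 h (3, 3, 4 and 3 arrays), beside 3 vehicle rats at 0 h. In the intravenous experiment, rats on a stock diet were 8 weeks old, received vehicle, lost access to food, and 16 h later were given, under isoflurane, about 25 µg of albumin-bound at-RA into the iliac vein. They were killed 30 min, 60 min or 90 min later (3 arrays each), beside 2 vehicle rats at 0 min. The controls of both at-RA experiments are called vehicle in the protocol and untreated in the sample titles. All rats of the time course were vitamin A deficient, and all rats of the intravenous experiment were fasted and operated on. No control was killed at the later times, so at-RA and the time since dosing, feeding or surgery cannot be told apart.

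Fatty acids enter hepatocytes partly through transporters such as CD36, are activated to acyl-CoA, pass into mitochondria on the carnitine shuttle, and are shortened by successive rounds of dehydrogenation, hydration, dehydrogenation and thiolysis. In fasting liver, the acetyl-CoA feeds ketone body synthesis, and pyruvate dehydrogenase is switched off by the kinase PDK4. PPARA, a nuclear receptor activated by fatty acids, binds DNA as a heterodimer with the retinoid X receptor and induces many of these genes. The retinoic acid receptors use the same partner.

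Signals are log2 values relative to the median of the same array, so a difference of 1 is a doubling of the linear signal, and levels of different genes are not compared. The retinoid response genes checked the labels. Deficient against adequate livers had lower Cyp2c22 (-4.57), Lrat (-2.89), Cyp26a1 (-1.94) and Rarb (-1.28). Cyp26a1, the retinoic acid hydroxylase, rose by 6.30 at 3 h of at-RA and by 5.43 at 60 min after injection. All of these passed limma's moderated test at an adjusted p of 0.05, the threshold used throughout. Hepatocyte markers were present on all arrays. The adipocyte markers Adipoq, Plin1 and Lep, and 6 of 8 pancreatic acinar markers, were under their array's 40th percentile on most arrays. Between 5 and 3172 probe sets of an array sat at the lowest value listed. Of the values of the 34 genes, 1 sat there, Acot1 in marginal replicate 3. In this bulk tissue, fewer cells of a type and less RNA per cell cannot be told apart.

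At 16 h after at-RA, genes across mitochondrial β-oxidation were lower than in vehicle livers. Of the 33 genes tested, 14 were lower (42.4%) and 0 higher, against 5.89% of all 28869 probe sets called lower. The median change was -0.74 for the genes and -0.39 for all probe sets. Of the 33 estimates 32 lay below 0, against 65.7% of all probe sets. A group of 17 of the 33 genes were lower on every 16 h array than on every vehicle array, against 13.8% of all probe sets. Earlier changes were few, and every comparison with vehicle shares the same 3 vehicle livers. At 3 h and at 6 h, 0 genes were called (0.0762% and 0.201% of all probe sets were called in either direction). An unadjusted p under 0.05 was reached by 3 and 4 genes, and by 945 and 1474 of the 28869 probe sets. At 10 h, 2 genes were lower and 0 higher, against 0.381% of all probe sets called lower.

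**Figure D1:**
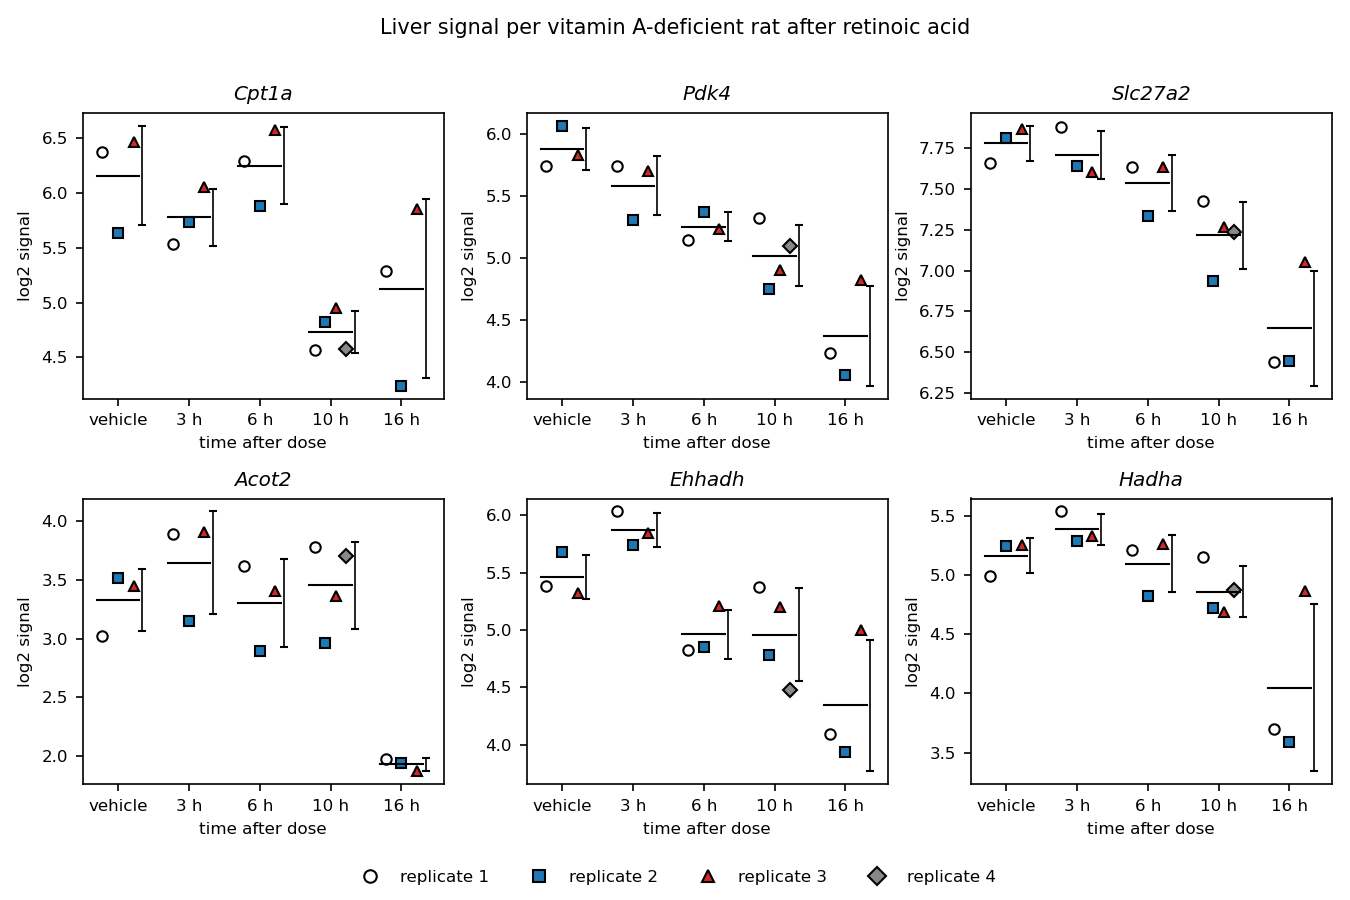
Log2 signal of Cpt1a, Pdk4, Slc27a2, Acot2, Ehhadh and Hadha on each array of the at-RA time course, by hours after dosing. Points are single arrays, the line is the group mean and the bar its SD; Acot2 is low on all 3 arrays at 16 h, between 1.87 and 1.98, and Cpt1a on all 4 arrays at 10 h.

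Pdk4, whose product inactivates pyruvate dehydrogenase and so spares glucose when fat is burned, fell most clearly on its chosen probe set. Its signal was 5.74, 6.07 and 5.84 in the vehicle livers and 4.23, 4.06 and 4.83 at 16 h. Every 16 h array lay below every vehicle array. The change was -1.51 ± 0.22 (SE, n = 3 and 3, 2.85-fold lower, limma adjusted p = 0.000389). At 10 h the 4 arrays read 5.32, 4.75, 4.90 and 5.10, again without overlap with vehicle, and Pdk4 was lower by 1.82-fold (-0.86 ± 0.20, limma adjusted p = 0.0469). At 3 h (5.74, 5.31 and 5.70) it lay just below the vehicle arrays or level with the lowest, and at 6 h (5.14, 5.38 and 5.24) below all of them, without passing the test (limma adjusted p = 0.613 at 6 h). A second, dimmer Pdk4 probe set was not called at 10 h (-0.66, limma adjusted p = 0.642) or 16 h (-0.66, adjusted p = 0.398). For 16 h against 3 h that probe set stood at -0.91, also uncalled (limma adjusted p = 0.188).

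Cpt1a, the enzyme that loads long-chain acyl groups onto carnitine and controls their entry into mitochondria, had another time pattern. The vehicle arrays read 6.37, 5.64 and 6.46, and the 10 h arrays 4.57, 4.83, 4.95 and 4.57. All 4 were below the lowest vehicle array, and Cpt1a was lower by 2.69-fold (-1.43 ± 0.27, limma adjusted p = 0.0067). At 16 h the arrays spread over 5.28, 4.24 and 5.85 and overlapped vehicle. The change there was -1.03 ± 0.29 (limma adjusted p = 0.0309). A second, dimmer Cpt1a probe set fell by 2.18 at 16 h (limma adjusted p = 0.0401) and stood at -2.16 at 10 h without passing the test (adjusted p = 0.116). Cpt2, which returns the acyl group to CoA inside the mitochondrion, was 3.34, 3.70 and 4.04 in vehicle livers and 2.64, 2.53 and 3.26 at 16 h. Its 16 h values were all lower, by 0.88 ± 0.26 (limma adjusted p = 0.0407). The 10 h values of 3.13, 3.02, 2.81 and 2.72 were also all below vehicle but not called (-0.77, adjusted p = 0.195).

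Slc27a2, a very long-chain acyl-CoA synthetase and fatty acid transporter, was 7.66, 7.82 and 7.87 in vehicle livers and 6.44, 6.45 and 7.05 at 16 h. The groups did not overlap, and the gene was lower by 2.19-fold (-1.13 ± 0.21, limma adjusted p = 0.00262). Acot2, the mitochondrial acyl-CoA thioesterase, was 3.02, 3.52 and 3.45 in vehicle livers and 1.98, 1.94 and 1.87 at 16 h. These 3 arrays lay within 0.05 (SD) of their mean and far below all others of the course (2.64-fold, -1.40 ± 0.28, limma adjusted p = 0.00537). At 10 h Acot2 still read 3.78, 2.96, 3.36 and 3.70, within the vehicle range or near it.

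Of the 8 core β-oxidation genes, Hadha, Hadhb, Acadl and Acaa2 were lower at 16 h. Hadha and Hadhb encode the subunits of the mitochondrial trifunctional protein, Acadl a long-chain acyl-CoA dehydrogenase and Acaa2 the thiolase that ends each round. Hadha read 4.99, 5.24 and 5.25 in vehicle livers and 3.70, 3.59 and 4.86 at 16 h. Replicates 1 and 2 were low and replicate 3 was close to the vehicle range, for a change of -1.11 ± 0.25 (limma adjusted p = 0.0106). The 2 dimmer Hadha probe sets differed in sign (0.34 and -1.15, limma adjusted p = 0.934 and 0.586). Hadhb changed by -0.77 ± 0.21, Acadl by -0.80 ± 0.22 and Acaa2 by -0.74 ± 0.21 (limma adjusted p from 0.0297 to 0.0357). The medium-chain dehydrogenase Acadm stood at -0.63 ± 0.20 and did not pass (adjusted p = 0.0566).

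Of the 4 auxiliary enzymes for unsaturated fatty acids, 2 were lower at 16 h, Decr1 and Ech1, while Eci1 (-0.61, limma adjusted p = 0.115) and Eci2 (-0.38, adjusted p = 0.36) did not pass. Decr1, the 2,4-dienoyl-CoA reductase needed for polyunsaturated fatty acids, was 6.50, 6.75 and 6.56 in vehicle livers and 5.41, 5.02 and 6.18 at 16 h. All 16 h arrays were lower, with replicate 3 nearest to vehicle (-1.07 ± 0.23, limma adjusted p = 0.00861). Ech1, a dienoyl-CoA isomerase, fell from 4.82, 4.92 and 4.76 to 4.04, 3.54 and 4.52 (-0.79 ± 0.22, adjusted p = 0.0315). Etfdh, which passes electrons from the acyl-CoA dehydrogenases to ubiquinone, was 5.07, 5.68 and 5.32 in vehicle livers and 4.26, 4.54 and 4.89 at 16 h, and was lower (-0.79 ± 0.21, adjusted p = 0.027). The electron transfer flavoprotein subunits themselves stood at -0.29 (Etfa) and -0.28 (Etfb) and were not called. Bdh1, which interconverts the ketone bodies acetoacetate and β-hydroxybutyrate, lay between 4.88 and 5.68 in the 3 vehicle livers and read 4.58, 4.21 and 4.53 at 16 h. It was lower on every array (-0.95 ± 0.28, limma adjusted p = 0.0429). At 10 h its 4 arrays ran from 3.50 to 5.05, overlapping vehicle, and missed the threshold (-1.08 ± 0.27, adjusted p = 0.0616). Ehhadh, the peroxisomal bifunctional enzyme and a classical PPARA target, was 5.38, 5.68 and 5.32 in vehicle livers and 4.10, 3.93 and 5.00 at 16 h. The groups did not overlap (-1.12 ± 0.25, limma adjusted p = 0.0103).

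The largest estimates that did not pass belonged to dim or scattered genes. Acot1, the cytosolic thioesterase, was at -4.57, -2.92 and -3.88 in vehicle livers and at 0.16, -1.08 and -0.53 at 3 h. The 3 h arrays were all higher, but the change of 3.31 ± 1.28 was not called (adjusted p = 1). Crat, the carnitine acetyltransferase, read 2.27, 2.77 and 1.81 in vehicle livers, 3.25, 2.98 and 2.88 at 3 h and 2.97, 3.02 and 3.42 at 6 h. Every array of both times was above vehicle, without a call (0.76 and 0.86, adjusted p = 1 and 0.681). The coactivator Ppargc1a stood at -0.98 at 3 h, -2.13 at 6 h and -0.80 at 10 h, none called, with vehicle arrays spread from -0.41 to 1.52. Cd36, at 0.68 at 6 h, was not called either. At 16 h the peroxisomal thioesterase Acot3 (-1.44), Acot1 (1.34) and the pantetheinase Vnn1 (-0.89) were not called (adjusted p from 0.246 to 0.598).

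Set directly against 3 h, the 16 h livers had 18 of 33 genes lower (54.5%) and 0 higher, against 8.41% of all probe sets called lower, with a median of -0.86 beside -0.42 for all. These were Slc27a2, Crat, Acadvl, Acadm, Hadha, Hadhb, Hadh, Acaa2, Eci1, Eci2, Decr1, Ech1, Etfdh, Bdh1, Ehhadh, Acot2, Pdk4 and Plin2. Acot2 (-1.72), Ehhadh (-1.53) and Hadha (-1.33) changed most, and Plin2, which coats lipid droplets, least (-0.61 ± 0.20, limma adjusted p = 0.0496). Both dimmer Hadha probe sets had the opposite sign here and were not called (1.009 and 0.533, limma adjusted p = 0.75 and 0.83). Ehhadh read 6.03, 5.74 and 5.84 at 3 h, above every vehicle array, before the low values at 16 h. Acot1 (-1.97), Acot3 (-1.21) and Cd36 (-1.14) were not called. Over the whole course, a moderated F test found a difference for 15 of 33 genes, against 4.79% of all probe sets.

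Among 65 further genes of fatty acid oxidation, ketone metabolism and PPARA response, 64 were tested in this course. At 16 h, 8 were lower (12.5%) and 0 higher, with a median of -0.50, beside the 5.89% and -0.39 of all probe sets. The 6 largest were the acyl-CoA synthetase Acsl3 (-2.13), the triglyceride lipase Pnpla2 (-1.94), the monocarboxylate transporter Slc16a1 (-1.38), the acetoacetyl-CoA thiolase Acat1 (-1.17), the peroxisomal oxidase Acox2 (-1.16) and the malonyl-CoA decarboxylase Mlycd (-0.99). Against 3 h, 14 of the 64 were lower (21.9%, beside 8.41%). Earlier, the lipid droplet gene Cidec was higher at 3 h (1.38) and the malic enzyme Me1 lower at 10 h (-1.51). Of 20 tested receptor partners and cofactors, Nr0b2, which encodes the corepressor SHP, was higher at 3 h (2.69) and 6 h (2.77). Klf15 was higher at 6 h (1.45). Lpin1, a coactivator of PPARA with PPARGC1A, was lower at 6 h (-1.64) and 10 h (-1.38). At 16 h, Lpin2 (-1.92), Ep300 (-1.59) and Ncor1 (-0.93) were lower.

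The 16 h result depended on the arrays' scale and on single arrays. When arrays were quantile normalized, the median of all probe sets moved from -0.39 to -0.06 and 2 genes remained lower, Slc27a2 (-0.82) and Pdk4 (-0.90); with arrays centred on their 75th percentile, 3 did, Slc27a2 (-0.74), Acot2 (-1.0) and Pdk4 (-1.11). Without 16 h replicates 1 and 2, 0 of the 33 genes were called; without replicate 1 alone 4 were, without replicate 2 alone 3, and without replicate 3 alone 23. Leaving out a control mattered as much, with 4 genes called without vehicle replicate 2 and 5 without vehicle replicate 3. Against 3 h, 6 genes were called after quantile normalization or centring, 9 without 3 h replicate 1, 12 without 3 h replicate 3 or 16 h replicate 1, 10 without 16 h replicate 2 and 28 without 16 h replicate 3. The F test over the course called 8 genes without 16 h replicate 2, 9 without 16 h replicate 1 or 3 h replicate 1 or 3, and 25 without 16 h replicate 3. These counts describe how far calls hung on single arrays. They are given without the share of all probe sets called in each refit, so a higher count is not a result about these genes. Of the 10 h calls, Cpt1a was lost without vehicle replicate 3, and Pdk4 kept its call in 5 of 16 fits that each left out 1 array. At 16 h against vehicle, Slc27a2, Acot2 and Pdk4 remained called whichever single array of the course was left out. Summed over each list, stellate cell markers were lower at 16 h (4.68 to 5.38) than in vehicle livers (5.85 to 6.38), as were Kupffer cell markers (5.75 to 6.22 against 6.59 to 6.77) and B and T cell markers (2.52 to 2.69 against 2.94 to 3.42). The summed hepatocyte markers (9 of 10 named) lay at 11.6 to 12.14, against 11.39 to 11.82. The part of these shifts in the lower oxidation genes was not tested.

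At 60 min after the intravenous dose, 4 of 34 genes were lower (11.8%) and 0 higher, against 0.167% of all probe sets called lower. They were Pdk4 and 3 enzymes of acyl-CoA handling, Acot1, Acot3 and Ehhadh. The median over the 34 was -0.29, beside -0.10 for all probe sets, with 31 of the 34 estimates below 0 (60.1% of all probe sets). An unadjusted p under 0.05 was reached by 17 of the 34, and by 2299 of all 22763 probe sets. A group of 24 genes were lower on every array than in both vehicle livers, against 18.7% of all probe sets.

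Acot1 and Acot3 lie near each other and near Acot2 on rat chromosome 6. In the RefSeq annotation of GRCr8, the genes span chr6:109341426-109352818 (Acot2), chr6:109367274-109375268 (Acot1) and chr6:109413617-109419840 (Acot3). The 250 bases before the start given in the promoter table are shown for the 4 genes that fell at 60 min, to let their start regions be compared, in the direction of the gene, with CCAAT boxes on either strand (read as CCAAT or ATTGG) in capitals. They lie at chr4:34568330-34568579 (Pdk4, minus strand), chr6:109367024-109367273 (Acot1, plus), chr6:109413447-109413696 (Acot3, plus) and chr11:92746159-92746408 (Ehhadh, plus). The Acot3 window runs past the first base of the gene span above, since the table takes another start for this gene.
Pdk4: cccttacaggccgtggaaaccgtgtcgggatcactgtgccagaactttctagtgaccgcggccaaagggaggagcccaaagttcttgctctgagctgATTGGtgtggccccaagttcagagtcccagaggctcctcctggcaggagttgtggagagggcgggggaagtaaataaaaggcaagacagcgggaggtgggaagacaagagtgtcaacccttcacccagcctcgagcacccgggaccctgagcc
Acot1: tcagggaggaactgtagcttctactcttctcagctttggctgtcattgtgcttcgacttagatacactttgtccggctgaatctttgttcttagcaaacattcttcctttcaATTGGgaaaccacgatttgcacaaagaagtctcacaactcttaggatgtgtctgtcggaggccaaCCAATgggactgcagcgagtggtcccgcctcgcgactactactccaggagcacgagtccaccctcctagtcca
Acot3: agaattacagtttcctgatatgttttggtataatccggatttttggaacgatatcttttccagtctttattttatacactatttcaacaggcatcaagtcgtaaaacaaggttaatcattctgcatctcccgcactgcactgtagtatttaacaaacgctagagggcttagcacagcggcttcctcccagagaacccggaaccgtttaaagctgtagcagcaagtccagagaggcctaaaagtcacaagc
Ehhadh: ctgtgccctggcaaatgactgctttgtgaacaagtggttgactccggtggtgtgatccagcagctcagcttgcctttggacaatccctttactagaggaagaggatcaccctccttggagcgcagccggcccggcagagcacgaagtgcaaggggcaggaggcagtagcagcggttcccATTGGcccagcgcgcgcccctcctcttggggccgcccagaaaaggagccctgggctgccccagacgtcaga
A CCAAT box occurs once in the Pdk4 and Ehhadh windows and on each strand of the Acot1 window, and not in the Acot3 window. Over 300-base windows (250 before the start to 50 after), the Acot1 and Acot3 windows matched at 20.7% of positions without gaps. The windows were not aligned, and a shift between them would hide likeness. The value therefore does not show whether the regions are alike. CCAAT was present in 10 of the 29 genes with a window in the table (34.5%) and in 37.7% of all 27457 windows, searched on both strands.

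The direct repeat bound by PPARA with RXR, AGGTCANAGGTCA (DR1), was searched on both strands in the same windows with up to 2 mismatches. It was found in 5 of 29 genes (17.2%) and in 3.71% of all windows. None of the 5 is among the genes that fell at 60 min. The sites are shown because Slc27a2, which was lower at 16 h of the time course, carries one. The other carriers, Crat, Slc25a20, Acadvl and Etfa, were not called at 16 h against vehicle, though Crat and Acadvl were lower against 3 h. No other gene called lower at 16 h against vehicle had a match, and some of them have no window. All sites are printed in the direction of the gene. Capitals mark the match, which reads on the opposite strand in Slc27a2 and Etfa, and 8 bases flank it on each side.
Slc27a2: tgaagaaaTGACCTTTGAGATatgccatc
Crat: gacgttcaAGGACACCGGTCAgacttgga
Slc25a20: cttaatgtAGGTGAAAGGTCGgtgtagcc
Acadvl: gggagaagAGGTCAGTGGTCAaggcttca
Etfa: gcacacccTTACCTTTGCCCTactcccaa
They lie at chr3:134258017-134258045, chr3:34087302-34087330, chr8:118243580-118243608, chr10:55236702-55236730 and chr8:64788099-64788127. Slc27a2 and Slc25a20 are plus-strand genes and the others minus-strand genes. Acadvl, the very long-chain acyl-CoA dehydrogenase, has 1 mismatch and the others 2. The wider repeat of the retinoic acid receptors, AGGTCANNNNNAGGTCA (DR5), matched in 1 of 29 genes (Eci2, 3.45%) and in 2.74% of all windows. Its unit AGGTCA alone, which both repeats contain, matched in 6 of 29 (20.7%) against 15.7%. The forkhead motif GTAAACA matched in 0 of 29 genes and in 3.76% of all windows. Such matches are descriptions of letters in a window and show no binding.

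**Figure D2:**
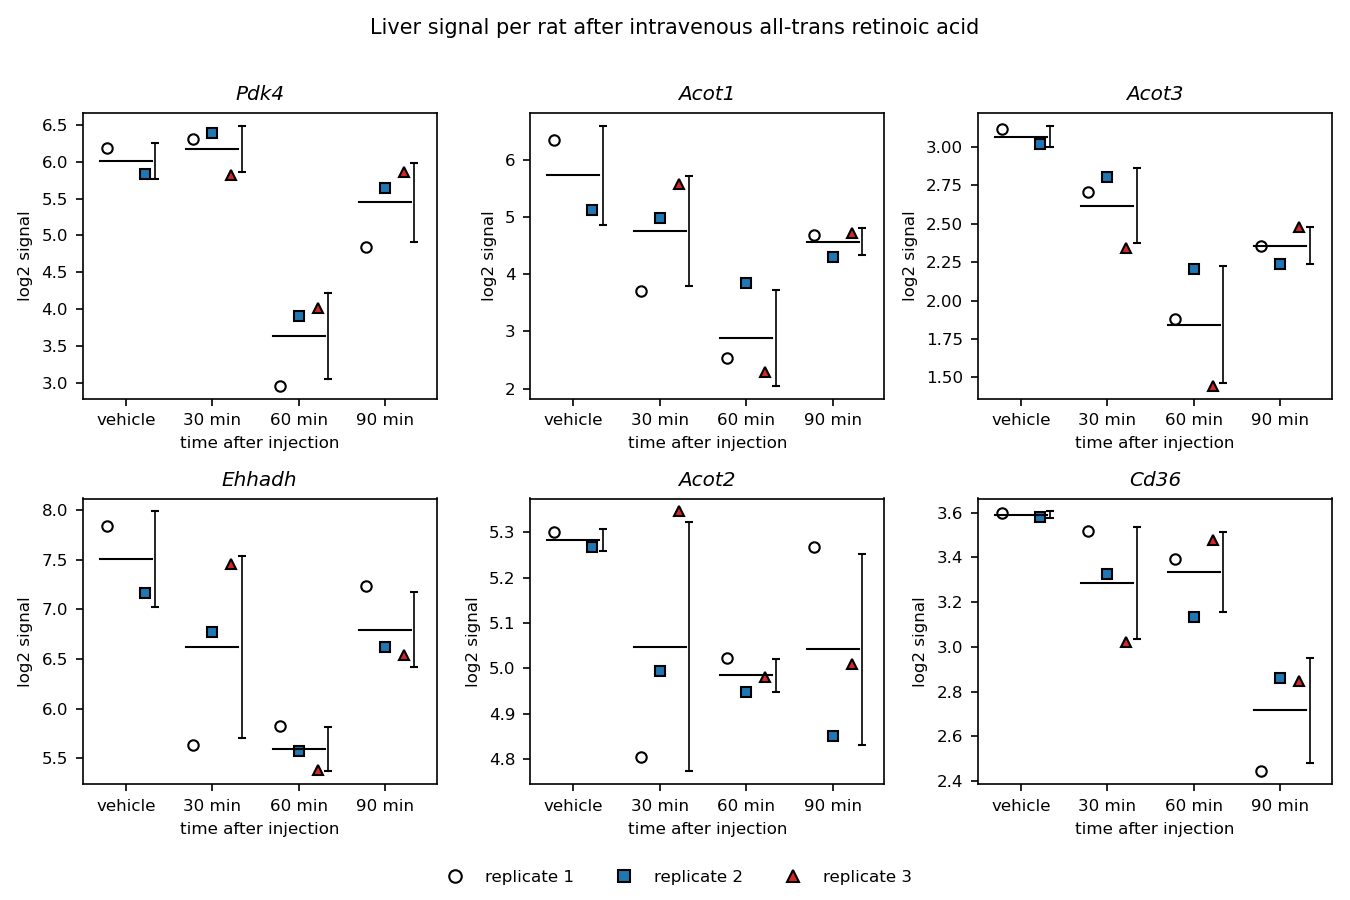
Log2 signal of Pdk4, Acot1, Acot3, Ehhadh, Acot2 and Cd36 on each array of the intravenous experiment, by minutes after injection. Points are single arrays, the line is the group mean and the bar its SD; Pdk4 is low only on the 3 arrays at 60 min (2.96 to 4.02), and Cd36 is lowest at 90 min.

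Pdk4 fell and then returned most of the way. The vehicle arrays read 6.19 and 5.84, the 30 min arrays 6.31, 6.40 and 5.82, the 60 min arrays 2.96, 3.91 and 4.02, and the 90 min arrays 4.85, 5.64 and 5.86. No 60 min array came within the range of any other time. Against vehicle the change at 60 min was -2.39 ± 0.31 (SE, n = 3 and 2, 5.22-fold lower, limma adjusted p = 0.00441). A pair of neighbouring-time contrasts, added after the data had been seen, gave -2.55 ± 0.28 for 60 min against 30 min (5.83-fold, limma adjusted p = 0.00166) and 1.82 ± 0.28 for 90 min against 60 min (3.53-fold higher, limma adjusted p = 0.0223). In each of these, Pdk4 was the 1 gene of 34 called (0.0439% of all probe sets were called lower in the first and 0.0879% higher in the second). A second Pdk4 probe set fell by 1.93 at 60 min against vehicle (limma adjusted p = 0.026) and by 2.10 against 30 min (0.018). Its rise from 60 min to 90 min was not called (1.065, limma adjusted p = 0.276). Pdk4 was also the 1 gene of 34 with a difference among the 4 groups by the F test (limma adjusted p = 0.00112, 0.549% of all probe sets).

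Acot1 was 6.35 and 5.13 in the vehicle livers, 3.70, 4.99 and 5.59 at 30 min, 2.53, 3.85 and 2.29 at 60 min, and 4.70, 4.30 and 4.73 at 90 min. All 60 min arrays were below vehicle and below 90 min, and 1 of them lay above the lowest 30 min array. The change at 60 min was -2.85 ± 0.50 (7.19-fold lower, limma adjusted p = 0.0233). Acot3 was 3.12 and 3.02 in vehicle livers, 2.71, 2.80 and 2.34 at 30 min, 1.88, 2.20 and 1.45 at 60 min, and 2.36, 2.24 and 2.48 at 90 min. The 60 min arrays were below all others, and the change was -1.22 ± 0.21 (2.33-fold, limma adjusted p = 0.0215). Ehhadh was 7.84 and 7.16 in vehicle livers, 5.64, 6.77 and 7.46 at 30 min, 5.82, 5.57 and 5.38 at 60 min, and 7.24, 6.62 and 6.54 at 90 min. At 30 min its arrays were already spread from the 60 min range to the vehicle range. At 60 min it was lower by 3.76-fold (-1.91 ± 0.38, limma adjusted p = 0.0472). Acot2 read 5.30 and 5.27 in vehicle livers and 5.02, 4.95 and 4.98 at 60 min, all lower by a small step, and was not called.

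Other genes moved less at 60 min. Ppargc1a was 0.95 and 1.02 in vehicle livers and between 1.95 and 2.6 on the 3 arrays at 60 min, higher on every array but not called (1.2 ± 0.30, adjusted p = 0.13). Ppara (1.07) and Vnn1 (-0.64) were not called (adjusted p of 0.401 for Vnn1, the lower of the pair). Cpt1a stayed between 7.10 and 7.57 on all 11 arrays, with vehicle at 7.40 and 7.54. At 30 min, 0 of 34 genes were called (0.0879% of all probe sets in either direction). Of the 34, 11 had an unadjusted p under 0.05, beside 2034 of all 22763 probe sets. A group of 14 of the 34 genes were lower on every 30 min array than on both vehicle arrays, against 19.1% of all probe sets. The largest estimates at 30 min, Ppara (1.77), Acot1 (-0.98) and Ehhadh (-0.88), did not pass (adjusted p from 0.444 to 0.607).

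At 90 min, the fatty acid translocase Cd36 was the 1 gene of 34 called, against 0.171% of all probe sets called lower. It read 3.60 and 3.58 in vehicle livers, 3.52, 3.32 and 3.02 at 30 min, 3.39, 3.13 and 3.48 at 60 min, and 2.44, 2.86 and 2.85 at 90 min. The 90 min arrays were below all others, for a change of -0.87 ± 0.18 (1.83-fold lower, limma adjusted p = 0.0464). Acot1 (-1.16), Ppara (0.94) and Acot3 (-0.71) were not called (adjusted p from 0.212 to 0.653). Between 90 min and 30 min, 0 of 34 genes were called (0.25% of all probe sets in either direction). Of the 34, 2 had an unadjusted p under 0.05, beside 1777 of all 22763 probe sets. The largest estimates were Ppara (-0.83), Pdk4 (-0.72) and Cd36 (-0.57).

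Of the 63 further oxidation genes tested in this experiment, 0 were called by limma at 60 min. Their median was -0.26, and 19 had an unadjusted p under 0.05, beside 2299 of all 22763 probe sets. Of the 20 receptor partners and cofactors, Nr0b2 was higher at 60 min (2.35) and 90 min (1.96), and Klf15 at 60 min (1.13) and 90 min (0.92). All comparisons with vehicle rest on the same 2 vehicle livers. Without vehicle replicate 1, 0 of the 34 genes were called at 60 min, and the change of Pdk4 was -2.21 (limma adjusted p = 0.0617), of Acot1 -2.24, of Acot3 -1.17 and of Ehhadh -1.57. Without vehicle replicate 2 or 60 min replicate 1, 2 genes were called, and without 60 min replicate 3, 1. The Ehhadh call held under 2 of 7 alternative settings and in 3 of 11 fits that each left out 1 array. The 90 min call of Cd36 held without 30 min replicate 1 or 3 and was lost without any other single array, after quantile normalization and after centring on the 75th percentile. The Pdk4 rise from 60 to 90 min was not called without replicate 2 or 3 of either time. The F test called 3 genes without 30 min replicate 1 or 60 min replicate 2, and 4 without 30 min replicate 3.

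Diet moved few of the genes. Here estimates come from a fit with the run of array identifiers as a term, since the identifiers form 2 runs (12 and 8 arrays) that both held deficient, marginal and adequate rats. What a run stands for is not stated. The identifier of deficient replicate 5 lies apart from the other 11 of the first run and was counted with them. Contrasts that name the same diet share its arrays. Between deficient and adequate livers, 0 of 34 genes were called (1.08% of all probe sets in either direction, 1% lower). Of the 34, 10 had an unadjusted p under 0.05, beside 3507 of all 27595 probe sets. The median was 0.13, beside -0.11 for all probe sets. Against the adequate diet, the marginal diet called 0 of 34 (0% of all probe sets) and the supplemented diet 0 of 34 (0.0109% of all). An unadjusted p under 0.05 was reached by 1 and 4 genes, and by 916 and 1003 of all 27595 probe sets. Against the deficient diet, the marginal diet had 2 genes lower, Eci1 and Ech1, against 0.087% of all probe sets called lower, and the supplemented diet had 1, Eci1, against 0.0689%.

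**Figure D3:**
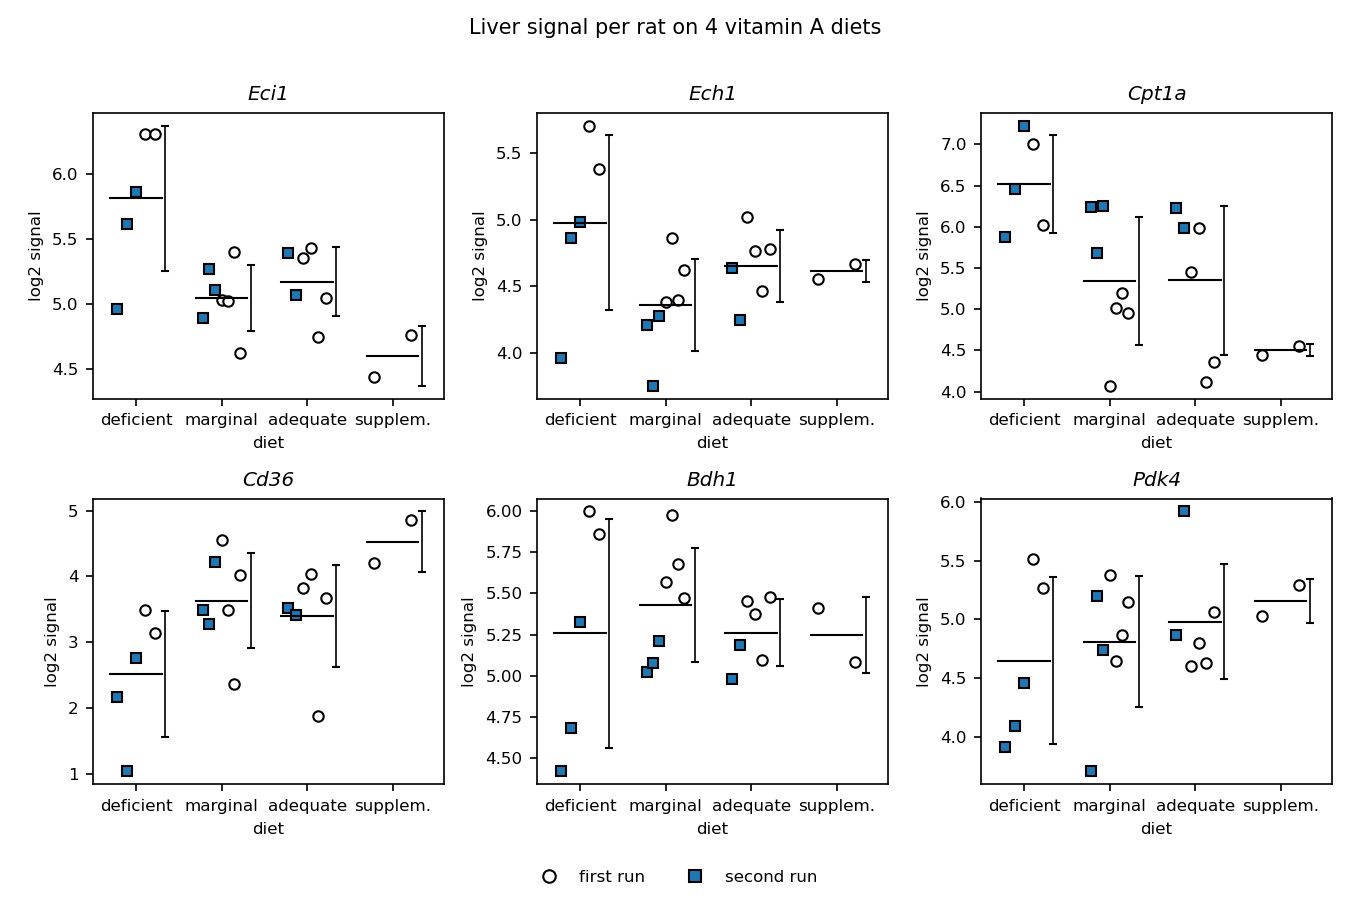
Log2 signal of Eci1, Ech1, Cpt1a, Cd36, Bdh1 and Pdk4 on each array of the diet experiment, by diet; circles are arrays of the first run and squares of the second, the line is the group mean and the bar its SD. Eci1 in deficient livers reaches 6.30, above the highest marginal array (5.40), while both supplemented arrays (4.44 and 4.77) lie below every deficient array.

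Eci1 is the mitochondrial isomerase that moves double bonds so that unsaturated fatty acids can be degraded. Its signal was 4.97, 5.62, 5.86, 6.30 and 6.30 in deficient livers, from 4.62 to 5.40 in marginal livers (median 5.03), from 4.75 to 5.43 in adequate livers (median 5.21) and 4.44 and 4.77 in supplemented livers. The supplemented arrays were below all deficient arrays, and 4 of 5 deficient arrays were above all marginal and adequate arrays. Eci1 was lower by 2.48-fold in supplemented livers (-1.31 ± 0.29, n = 2 and 5, limma adjusted p = 0.0273) and by 1.73-fold in marginal livers (-0.79 ± 0.20, n = 7 and 5, limma adjusted p = 0.0292). Both calls were lost without the run term and with the run as a random block. Deficient against adequate gave 0.68 without a call (adjusted p = 0.113). Eci1 was also the 1 gene of 34 that differed among the 4 diets by the F test (limma adjusted p = 0.0359, 0.91% of all probe sets). A second, dim Eci1 probe set was higher in deficient than in adequate livers (2.6 ± 0.65, limma adjusted p = 0.0393). That probe set was not called against deficient livers, in supplemented (-0.62, limma adjusted p = 0.892) or marginal livers (-0.51, adjusted p = 0.75).

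Ech1, the peroxisomal and mitochondrial dienoyl-CoA isomerase, was 3.96, 4.86, 4.98, 5.71 and 5.38 in deficient livers, from 3.75 to 4.86 in marginal livers (median 4.38), from 4.24 to 5.02 in adequate livers (median 4.70) and 4.55 and 4.67 in supplemented livers. Deficient replicate 1 was low and the groups overlapped. Ech1 was lower in marginal than in deficient livers (-0.72 ± 0.18, 1.65-fold, limma adjusted p = 0.0321).

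Cpt1a was 5.87, 6.46, 7.22, 7.01 and 6.02 in deficient livers, from 4.11 to 6.23 in adequate livers (median 5.71), from 4.07 to 6.25 in marginal livers (median 5.20) and 4.45 and 4.56 in supplemented livers. Both supplemented arrays were below every deficient array. No contrast of this probe set passed (0.94 deficient against adequate, adjusted p = 0.156; -1.50 supplemented against deficient, adjusted p = 0.17). The second Cpt1a probe set was called higher in deficient than in adequate livers (1.47 ± 0.35, limma adjusted p = 0.0263) and lower in marginal than in deficient livers (-1.49 ± 0.33, limma adjusted p = 0.0134).

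Cd36 went the other way. It was 2.17, 1.04, 2.76, 3.48 and 3.15 in deficient livers, from 1.88 to 4.04 in adequate livers (median 3.60) and 4.20 and 4.85 in supplemented livers. The supplemented arrays were above all deficient and adequate arrays, but no contrast was called (1.82 ± 0.53 supplemented against deficient, adjusted p = 0.169; 1.03 supplemented against adequate, adjusted p = 1). The other estimates that led each comparison were uncalled. Deficient against adequate, they were Ppara (1.82), Ppargc1a (1.34) and Vnn1 (1.08). Marginal against adequate, they were Acot1 (-1.53), Ppara (0.60) and Ppargc1a (0.49). Supplemented against adequate, they also included Ppara (1.58) and Acot1 (-1.15). Supplemented against deficient, Acot1 stood at -1.44, and marginal against deficient, Acot1 (-1.82), Ppara (-1.22) and Vnn1 (-1.07).

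Of the 65 further oxidation genes, 0 were higher and 5 lower in deficient than in adequate livers (7.69%), with a median of -0.19, beside 1% lower and -0.11 for all probe sets. They were Me1 (-1.34), the peroxisomal carnitine octanoyltransferase Crot (-1.08), the kinase Pdk1 (-1.03), the monoglyceride lipase Mgll (-0.94) and glycerol kinase Gk (-0.90). Crot alone was higher in supplemented than in deficient livers (1.72). That is 1.54% of the 65, beside 0.352% of all probe sets called higher. Crot (1.17), Pdk1 (0.96) and Gk (0.83) were higher in marginal than in deficient livers (4.62%, beside 1.6% of all probe sets called higher).

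The diet result shifted with the run, the scale and single arrays. Without deficient replicate 5, 0 genes were called for supplemented or marginal against deficient livers. Marginal against deficient also gave 0 without marginal replicate 4 or deficient replicate 2, and 1 without deficient replicate 3 or marginal replicate 2, 3, 5 or 7. Supplemented against deficient gave 0 without either supplemented array and 2 without deficient replicate 4. The F test over the diets called 0 genes without either supplemented array, deficient replicate 2, 3, 4 or 5, marginal replicate 1, 3, 4 or 5, or adequate replicate 2, and 3 without deficient replicate 1. Within the first run, 1 gene was called between deficient and adequate livers, Eci1 (1.16), with a median of 0.42 over the genes beside 0.04 for all probe sets. Within the second run, 1 gene was called, Cd36 (-1.48), and the medians were -0.21 and -0.34. After quantile normalization, 8 genes were higher in deficient than in adequate livers, Cpt1a (1.2), Eci1 (0.94), Ech1 (0.74), Acaa2 (0.69), Decr1 (0.69), Ehhadh (0.55), Hadhb (0.45) and Bdh1 (0.43), where the deposited scale called 0. Under that scale 119 probe sets in all were called higher, against 22 on the deposited one, and the median of all moved from -0.11 to -0.02.

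**Figure D4:**
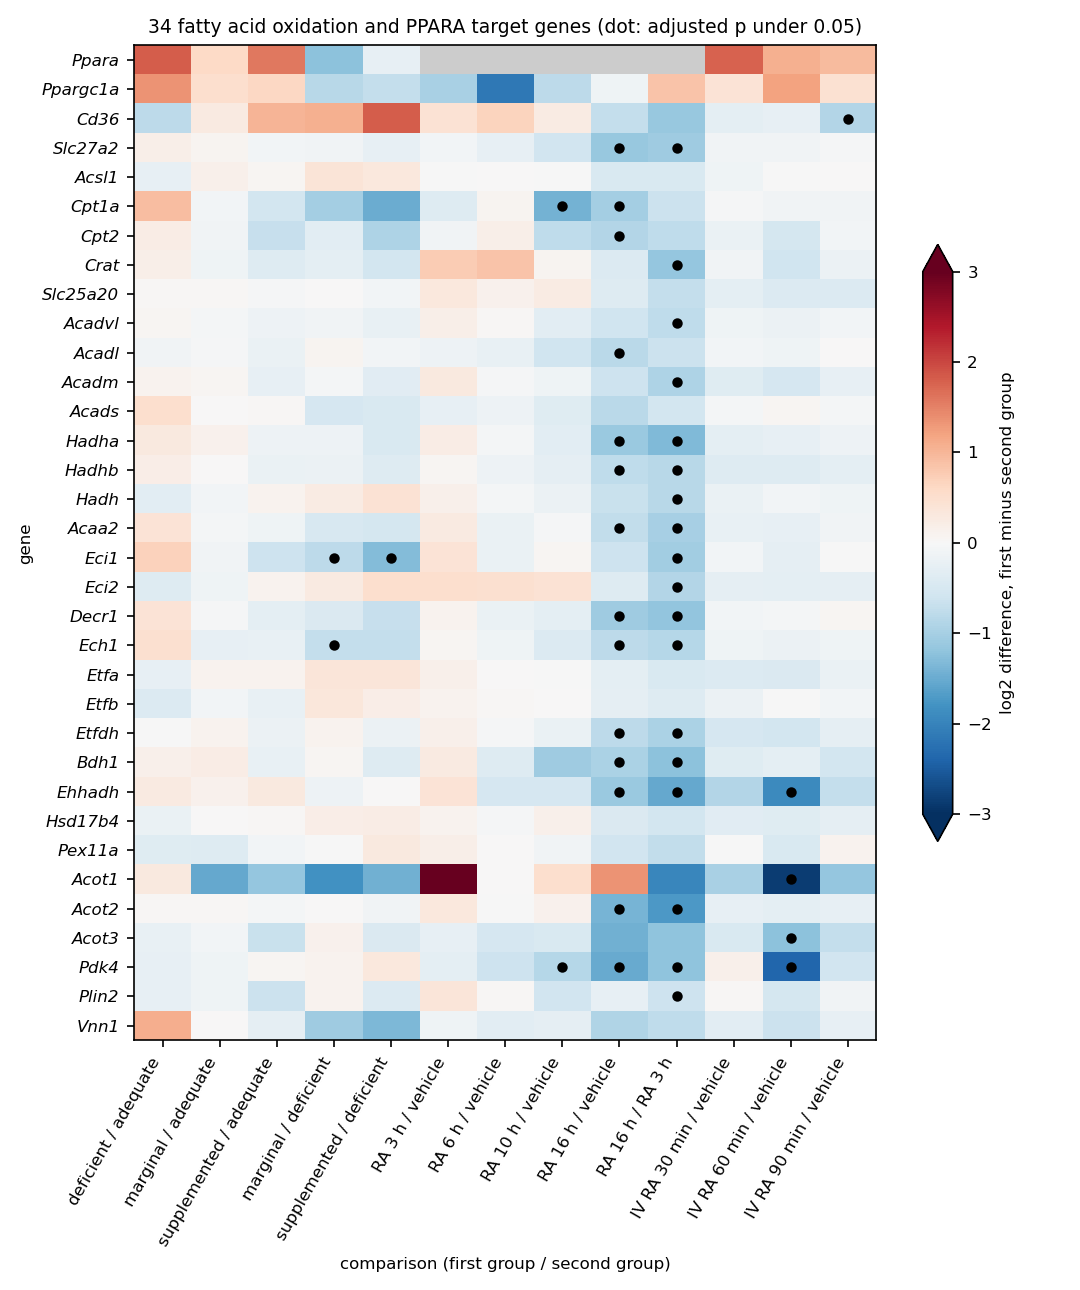
Change of each of the 34 genes (rows, by role) in each comparison (columns), in log2 units, with the colour scale ending at 3 in either direction; grey marks a gene that was not tested and a dot an adjusted p under 0.05. The 16 h columns of the at-RA course hold most dots, 14 against vehicle and 18 against 3 h.

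Levels also differed between the experiments. Across all 47 arrays, 7 genes had every one of the 11 intravenous-experiment arrays above each of the 36 others, against 0.211% of named genes. Acot1 ran from 2.29 to 6.35 on those arrays and from -5.41 to 1.22 on the others. Vnn1, a pantetheinase induced by PPARA, ran from 4.31 to 5.53 against -0.84 to 2.58. The lowest Acot1 arrays of the intravenous experiment, 2.29 and 2.53 at 60 min, also lay above every array of the others. Ech1 ran from 7.04 to 7.32 against 3.55 to 5.71, Eci1 from 7.15 to 7.78 against 4.44 to 6.30, and Acot3 from 1.45 to 3.12 against -3.30 to 1.39. Acot2 ran from 4.81 to 5.35 against 1.87 to 4.19, and Hadhb from 6.32 to 6.99 against 4.69 to 6.05. The mean differences were 6.60 for Acot1, 3.92 for Vnn1, 2.56 for Ech1, 2.46 for Acot3, 2.18 for Eci1, 1.70 for Acot2 and 1.24 for Hadhb. Over the 34 genes the median difference was 0.695, beside 0.0144 for all named genes, and 30 were above 0. Acsl1, an acyl-CoA synthetase, was among the 4 below 0, at -0.41. Cpt1a (1.85), Cpt2 (1.36) and Ehhadh (1.33) were higher on average with overlapping arrays. After each array was centred on its 75th percentile, Decr1 and Acadl joined the 7, for 9 genes in all. The intravenous experiment differed from the others in diet, fasting, anaesthesia, surgery and array series at once. These cannot be told apart, and no test was made.

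**Figure D5:**
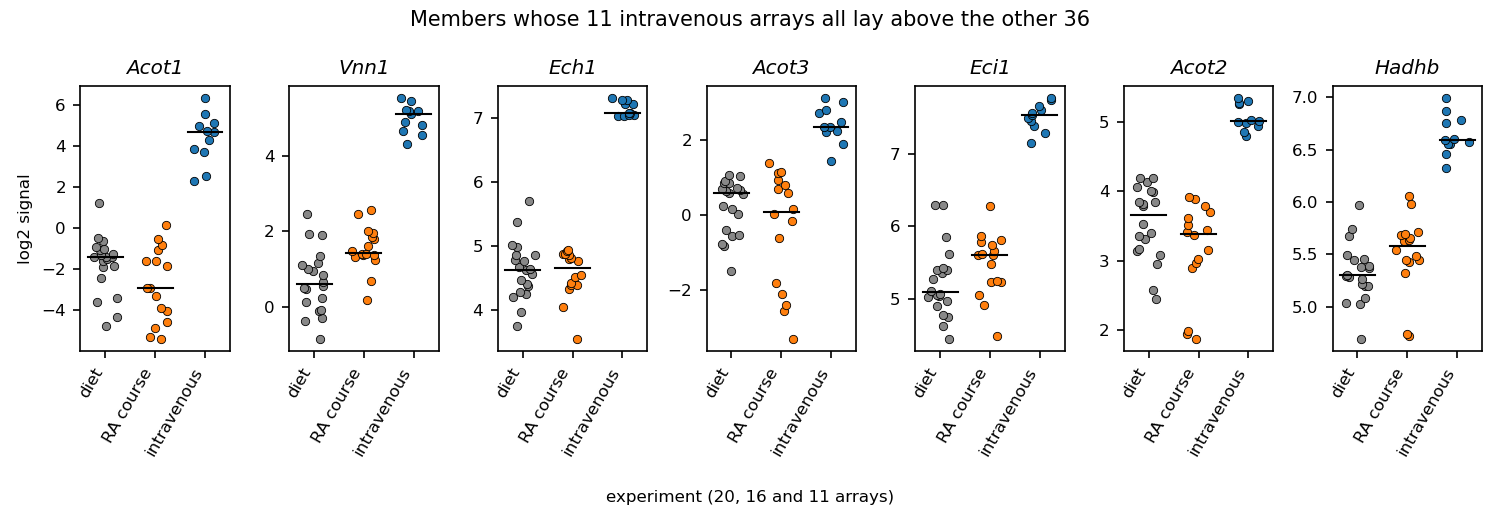
Log2 signal of Acot1, Vnn1, Ech1, Acot3, Eci1, Acot2 and Hadhb on all 47 arrays, by experiment; each point is 1 array and each line the median. For each gene the 11 arrays of the intravenous experiment lie above all 36 others.

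Within each experiment most of the genes varied together from liver to liver. For deviations from group means (and run means in the diet experiment), the median Pearson correlation between pairs of the genes was 0.415 over 20 diet arrays, 0.493 over 16 time-course arrays and 0.379 over 11 intravenous arrays. Between these genes and all other named genes it was 0.137, 0.174 and 0.0309. Points share arrays and their scale, and the values are descriptions. The closest pairs were Acadvl with Hadha in the diet experiment (0.928), Acadvl with Acadm in the time course (0.927), and Etfdh with Hsd17b4, the peroxisomal multifunctional enzyme, in the intravenous experiment (0.93). Cd36 ran against the rest in the intravenous experiment, with -0.967 against Ech1 and -0.894 against Etfb. Ppara (-0.385) and Pdk4 (-0.227) also had a median correlation below 0 with the other genes there, as did Acads, Acsl1 and Acot3. So did Acot1, Acot3, Ppara and Acads in the diet experiment, and Acot1 and Ppargc1a in the time course. Hadha and Hadhb, which lie head to head on chromosome 6 (chr6:31907801-31947434 and chr6:31873404-31907557), share 200 bases of their 300-base windows, and the gene starts used for the windows lie 301 bases apart.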

How the data were processed

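Livers of single rats were hybridised to Affymetrix rat arrays, 1 array each. Per the submitters' processing notes, the signals were made with GCOS; its version, scaling and floor are not given in the sources used here. The deposited table holds log2 signals of 31099 probe sets. The log base is read from the values, which span 12.9 to 17 units an array, and every array's median is 0. The annotation gives 1 gene symbol for 20826 probe sets, several for 436 and none for 9780; 57 control probe sets were left out. Each experiment was fitted apart in limma 3.58.1 (R 4.3.3; group means, run as a term in the diet experiment, trended eBayes, residual degrees of freedom 15, 11 and 7). Tests covered probe sets that exceeded the array's 40th percentile on at least 2 arrays (27595, 28869 and 22763), with Benjamini-Hochberg adjustment over all of them and calls at 0.05. The code was tested on simulated data.

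The 34 genes and the other lists were chosen with earlier results of these data known. Values are given for every called gene of the 34, the 3 uncalled ones with the largest change, and up to 6 called genes of each pathway list; genes outside this rule were named after their values were seen. The series' text calls arrays of a group biological repeats, and precision is limited by how few arrays each group has. Same-numbered arrays of different groups showed median correlations of -0.042, 0.0016 and -0.0035 in their deviations. The best match of an array carried its own number for 0 of 20, 7 of 16 and 5 of 11 arrays. The main fits did not pair by number, and low medians cannot exclude a pairing. Promoter windows, gene positions and sequences come from RefSeq tables for GRCr8, in which 29 of the 34 genes have a window, and all 34 genes matched by gene ID. Alternatives were quantile normalization, 75th percentile centring, no filter, the mean of all probe sets of a gene, array weights, untrended eBayes, no run term, the run as a random block, each run alone, the replicate number as a block, leaving out each array, and leaving out arrays that stood apart.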

Additional observations from a re-analysis of the deposited data

Results flagged for a closer look

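In 6 of 136 gene and group pairs examined (4.41%), 1 array lay far from the rest of its group by Dixon's gap ratio. The pairs came from the deficient, marginal, adequate and 10 h groups alone, and the smaller groups were not examined. Chance gives about 1 in 20. Cd36 was lowest in adequate replicate 5 (1.88, next 3.42, gap ratio 0.713). That array had the highest 3' minus 5' differences of the 47 arrays (1.37 for Gapdh and 3.16 for actin), whose part in the value was not tested. Acot3 was lowest in adequate replicate 1 (-1.49, next 0.15, 0.645) and Pdk4 highest in adequate replicate 2 (5.92, next 5.06, 0.653). Acads, the short-chain dehydrogenase, was lowest in marginal replicate 2 (0.572). At 10 h of at-RA, Acadm was highest in replicate 1 (7.15, next 6.89, 0.957) and Etfa lowest in replicate 2 (5.44, next 5.85, 0.861).

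Contrasts between treated groups, each a test of the difference itself by limma, marked further values. Eci1 differed between supplemented and deficient livers (-1.31) and between marginal and deficient livers (-0.79), and Ech1 between marginal and deficient livers (-0.72). Between 16 h and 3 h of at-RA, the differences were -1.06 for Slc27a2, -1.16 for Crat, -0.76 for Acadvl, -0.92 for Acadm, -1.33 for Hadha, -0.82 for Hadhb, -0.83 for Hadh, -0.997 for Acaa2, -1.03 for Eci1, -0.88 for Eci2, -1.17 for Decr1, -0.86 for Ech1, -0.94 for Etfdh, -1.23 for Bdh1, -1.53 for Ehhadh, -1.72 for Acot2, -1.21 for Pdk4 and -0.61 for Plin2. In the intravenous experiment, Pdk4 differed between 60 min and 30 min (-2.55) and between 90 min and 60 min (1.82).

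Probe sets of the same genes that were not chosen, being dimmer, also gave calls by limma. The second Cpt1a probe set was higher in deficient than in adequate livers (1.47), lower in marginal than in deficient livers (-1.49), and lower at 16 h than in vehicle livers (-2.18) and at 3 h (-2.14). The second Eci1 probe set was higher in deficient than in adequate livers (2.6). Another Acsl1 probe set was lower at 16 h than in vehicle livers (-1.12) and at 3 h (-1.40). Another Bdh1 probe set was lower at 10 h than in vehicle livers (-1.20) and at 16 h than at 3 h (-0.80). A pair of further Acot2 probe sets was lower at 16 h than at 3 h (-2.90 and -1.05). The second Pdk4 probe set was lower at 60 min after injection than in vehicle livers (-1.93) and at 30 min (-2.10). Where a chosen probe set was called, 21 of 25 values of other probe sets of its gene had the same sign and 6 were themselves called.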

How the results depend on the processing

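Counts below are genes called of those tested, without the share of all probe sets called in each setting. Untrended eBayes called 0 in every comparison that had a call. Quantile normalization gave 8 each for deficient against adequate, supplemented against deficient, marginal against deficient and the diet F test, 1 at 6 h, 4 at 10 h, 2 at 16 h, 6 for 16 h against 3 h, 5 for the time-course F test, 0 at 90 min and 2 for the intravenous F test. Centring on the 75th percentile gave 1 for deficient against adequate, 5 for marginal against deficient, 3 for the diet F test, 3 at 16 h, 6 for 16 h against 3 h, 7 for the time-course F test, 0 at 90 min and 2 for the intravenous F test. Array weights gave 2 for supplemented against deficient, 0 for the diet F test, 7 at 10 h and 3 for the intravenous F test. Averaging all probe sets of a gene gave 1 for deficient against adequate, 0 for supplemented against deficient, 1 at 10 h, 0 for 90 min against 60 min and 2 for the intravenous F test. No filter gave 1 at 10 h. Each run alone gave 1 for deficient against adequate and 1 for marginal against deficient. Without the run term, or with it as a random block, supplemented against deficient, marginal against deficient and the diet F test gave 0. With the replicate number as a block, those 3 gave 0, 10 h 1, the time-course F test 8, 60 min 1 (Pdk4) and 90 min 0. Without arrays that stood apart, deficient against adequate gave 1, supplemented against deficient 2, the diet F test 3, 16 h 0, 16 h against 3 h 1 and the time-course F test 7. Leaving out each array gave ranges of 0 to 1 (deficient against adequate), 0 to 2 (supplemented against deficient), 0 to 3 (marginal against deficient), 0 to 3 (diet F test), 0 to 3 (10 h), 3 to 23 (16 h), 9 to 28 (16 h against 3 h), 8 to 25 (time-course F test), 0 to 4 (60 min), 0 to 1 (90 min), 0 to 1 (90 min against 60 min) and 1 to 4 (intravenous F test).

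Of 12959 single values, 12554 kept their side of the threshold, 313 lost and 90 gained a call. Direction was compared only where a value was called in the main fit or the alternative, so uncalled values may have changed sign. The other 2 lost a call and turned sign between 16 h and 3 h, namely Plin2 after quantile normalization (0.0293, adjusted p = 0.969) and Hadha averaged over its probe sets (0.0691, adjusted p = 0.946). The Hadha average takes in dimmer probe sets that stood at 1.009 and 0.533, beside -1.33 for the chosen one. For Plin2 the cause was not tested. With 2 vehicle and 2 supplemented arrays, and dim signals for Ppara, and for Acot1 and Acot3 outside the intravenous experiment, small changes of these genes cannot be resolved.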
